A study of Mus musculus with 10 samples.

Results

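The Hox genes of mouse embryonic back skin were read from single-cell RNA sequencing of 10 libraries. Members were chosen by symbol: Hox, a cluster letter from a to d and a number. This gave 39 genes of the 32285 listed for the E15.5 and E17.5 libraries and the same 39 of the 27998 listed at E16.5, with 11 in HoxA, 10 in HoxB, 9 in HoxC and 9 in HoxD. No expression value entered this rule, although it was set with earlier results of these data known. Levels are unique molecular identifiers (UMIs) of a gene per 1e6 UMIs of the cells counted, written CPM. They come from 3′ tags and are not divided by gene length, so levels of different genes are set side by side only as tag counts. In the annotation 15 of the 39 members overlap another gene on the same strand, so counts from the shared stretches are uncertain. On the opposite strand 14 members overlap another gene.

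Hox genes encode homeodomain transcription factors that give cells an address along the head-to-tail axis. HoxA lies on chromosome 6, HoxB on 11, HoxC on 15 and HoxD on 2. Within each cluster the genes lie in a fixed order, from paralog group 1 at the 3′ end, used at the front of the embryo, to group 13 at the 5′ end, used towards the tail and the tips of the limbs. Paralogs of the same number in different clusters descend from a common ancestor and often share functions. Fibroblasts keep a Hox pattern of the site they come from into adult life, and Pbx and Meis proteins of the TALE class bind DNA together with Hox proteins. In skin appendages Hoxc13 is needed for hair shafts and nails.

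Back skin was taken at E15.5 from 2 control embryos (2 and 3) and 2 MOF cKO embryos (5 and 6), at E16.5 from 2 controls and 2 MOF cKO embryos, and at E17.5 from 1 control and 1 QPC cKO embryo. MOF cKO embryos were MOFfl/fl/K14Cre and lacked Mof (Kat8), the acetyltransferase of histone H4 lysine 16, where the Krt14 promoter had driven Cre, which is in the epithelium. QPC cKO embryos were QPCfl/fl/K14Cre and lacked Uqcrq, a subunit of respiratory chain complex III, in the same cells. Controls were wild-type or heterozygous littermates on a mixed C57Bl/6J and CD-1 background, and staining in the study found H4K16ac lost from only a part of the epithelial cells in MOF cKO 6. The driver is not active in fibroblasts, and H4K16ac stayed in the dermis in the study's staining. Stage and 10x chemistry changed together, and the gene list differed at E16.5, so stages cannot be told apart from these. Levels were not tested between stages, and where the MOF effect at E16.5 is set against that at E15.5, chemistry and gene list differ too.

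Cells were kept with more than 1000 and fewer than 6000 genes and under 10% mitochondrial UMIs. Fibroblasts were kept cells with at least 30 UMIs of Col1a1 and Col3a1 and under 10 of Krt5 and Krt14, and epithelial cells had at least 10 keratin UMIs. This left 32692 fibroblasts, 518 to 7389 a library, and 13318 epithelial cells, 30 to 3069 a library. The E16.5 MOF cKO libraries held 30 and 39 epithelial cells with 99 and 191 Hox UMIs. Median depth was 9755 to 20088 UMIs in fibroblasts and 12732.5 to 25422 in epithelial cells. Each of 13 marker genes that were not used for the limits, such as Pdgfra and Dcn for fibroblasts and Trp63 and Epcam for epithelium, was higher in its own class in 10 of 10 libraries. Summed fibroblast markers still ran from 296 to 3772 CPM in epithelial cells, and epithelial markers from 57.7 to 274 in fibroblasts. Kat8 in epithelial cells read 13.02 and 13.97 in the E15.5 controls and 13.04 and 10.0 in the E15.5 MOF cKO, and 17.6 and 14.8 against 8.66 and 3.75 at E16.5. A 3′ tag outside the deleted exons does not check a deletion. Uqcrq read 106 in epithelial cells of the E17.5 control and 43.9 in those of the QPC cKO. The 2 E17.5 libraries shared 1702 cell barcodes, 20.7% of the smaller, with a median of 40645.5 UMIs in the control and 673.5 in the QPC cKO, whereas no other pair shared more than 0.746%. Among kept cells 160 of the control and 41 of the QPC cKO carried such a barcode. E17.5 member counts and the fibroblast ratios of Hoxa10 and Hoxc10 are given with and without them. All other E17.5 values include them.

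Hox transcripts were found in nearly all fibroblasts and most epithelial cells. All 39 members together read 389 to 632 CPM in fibroblasts and 171 to 597 in epithelial cells. A Hox UMI was present in 94.5% to 99.4% of fibroblasts and 73.3% to 99.0% of epithelial cells, and in 81.7% to 91.9% and 53.6% to 88.3% after each cell was thinned to 5000 UMIs. Immune cells, which come from the blood lineage, were set beside them: 8.68% to 26.4% held a Hox UMI, or 3.03% to 12.2% when thinned, at median depths of 6846.5 to 19507.5 UMIs. The leading member in immune cells was Hoxb4, with 66 UMIs beside 48 of Hoxc8. Their own expression was not told apart from RNA of other cells. In fibroblasts 28 members were found in every library, 12 averaged above 10 CPM, 13 between 1 and 10 and 14 below 1. In epithelial cells 19 members were found in every library and 12 averaged above 10, 14 between 1 and 10 and 13 below 1. Hoxd12 and Hoxd13, the 5′ end of HoxD, had no UMI in epithelial cells, which allows up to 0.0411 to 5.19 CPM (3 counts a library, counting error only).

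**Figure D1:**
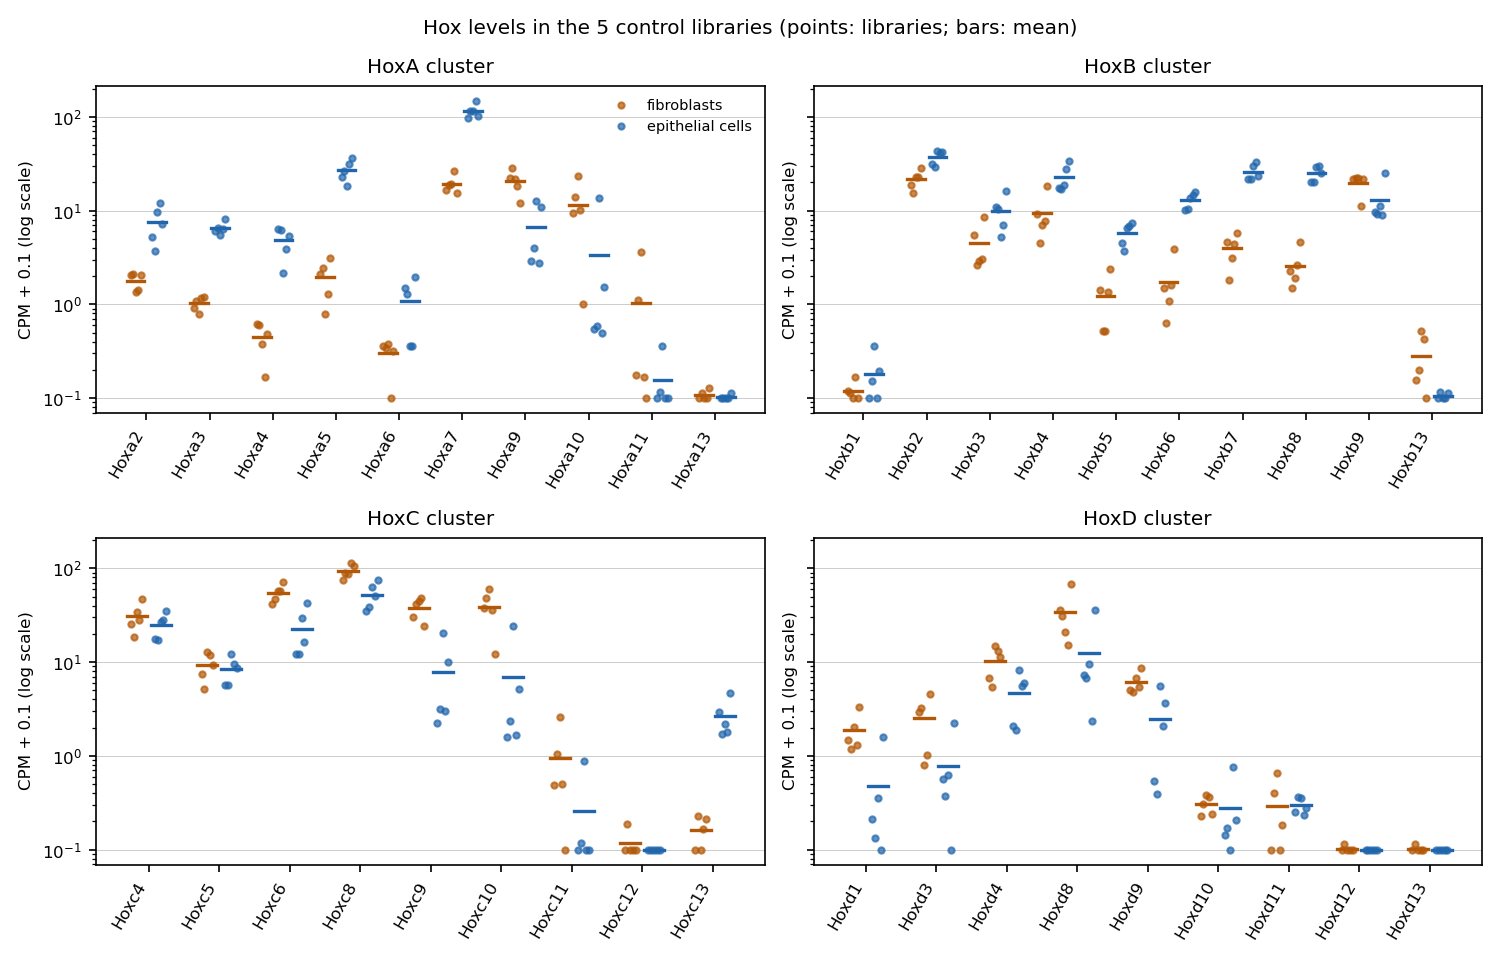
Level of each Hox member reported by name (CPM plus 0.1, log axis) in fibroblasts and epithelial cells of the 5 control libraries, in cluster order, with a point for each library and a bar at the mean. Epithelial points all lie above fibroblast points for Hoxa2 to Hoxa5 and Hoxa7, and fibroblast points all lie above epithelial points for Hoxc9.

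Fibroblasts were led by HoxC. Hoxc8, which patterns the thoracic trunk, was the most abundant member in them, at 75.2 and 88.5 in the E15.5 controls, 118 and 97.9 in MOF cKO 5 and 6, 87.1 and 114 in the E16.5 controls, 83.5 and 100.5 in the E16.5 MOF cKO, 107 in the E17.5 control and 114 in the QPC cKO. Hoxc6, also a thoracic gene, followed with 42.0 and 47.0 in the E15.5 controls, 59.2 and 54.0 in MOF cKO 5 and 6, 56.8 and 57.0 in the E16.5 controls, 69.7 and 60.5 in the E16.5 MOF cKO, 70.7 in the E17.5 control and 82.0 in the QPC cKO. Hoxc9, which marks lower thoracic levels, read 30.2 and 42.0 in the E15.5 controls, 44.6 and 41.9 in MOF cKO 5 and 6, 44.9 and 47.5 in the E16.5 controls, 40.5 and 43.9 in the E16.5 MOF cKO, 24.2 in the E17.5 control and 48.7 in the QPC cKO. None of the 3 fell to 0 in a library, and Hoxc9 was lowest in the E17.5 control.

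Hoxc10, a gene of lumbar and hindlimb levels, differed widely between libraries. Its level was 38.0 and 48.0 in the E15.5 controls, 60.5 and 53.2 in MOF cKO 5 and 6, 59.7 and 36.2 in the E16.5 controls, 41.6 and 29.5 in the E16.5 MOF cKO, 12.2 in the E17.5 control and 68.5 in the QPC cKO. The E17.5 control was lowest and the QPC cKO of the same stage was highest. Hoxa9, of the lower thorax, ran the same way, with 22.3 and 28.7 in the E15.5 controls, 37.0 and 33.2 in MOF cKO 5 and 6, 21.4 and 18.2 in the E16.5 controls, 27.2 and 21.3 in the E16.5 MOF cKO, 12.0 in the E17.5 control and 42.4 in the QPC cKO. Hoxa10, a lumbar gene that ranked just below the 10 leading members, read 9.29 and 13.97 in the E15.5 controls, 14.7 and 15.9 in MOF cKO 5 and 6, 23.2 and 10.0 in the E16.5 controls, 19.4 and 6.68 in the E16.5 MOF cKO, 0.916 in the E17.5 control and 23.0 in the QPC cKO.

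The remaining leading members of fibroblasts sat between 10 and 70 CPM. Hoxd8 read 35.9 and 31.1 in the E15.5 controls, 32.5 and 41.9 in MOF cKO 5 and 6, 20.9 and 15.1 in the E16.5 controls, 20.9 and 20.6 in the E16.5 MOF cKO, 68.6 in the E17.5 control and 61.8 in the QPC cKO, with both E17.5 libraries above the rest. Hoxc4, of the cervical region, read 25.6 and 18.2 in the E15.5 controls, 23.8 and 33.1 in MOF cKO 5 and 6, 33.9 and 28.2 in the E16.5 controls, 34.5 and 28.1 in the E16.5 MOF cKO, 47.1 in the E17.5 control and 43.0 in the QPC cKO. Hoxb2, known for its part in the hindbrain, gave 18.7 and 15.2 in the E15.5 controls, 15.9 and 23.3 in MOF cKO 5 and 6, 23.0 and 22.8 in the E16.5 controls, 20.1 and 20.0 in the E16.5 MOF cKO, 28.7 in the E17.5 control and 23.4 in the QPC cKO. Control and MOF cKO values of these 3 overlapped at E15.5. Hoxb9, a thoracic member, came to 21.6 and 22.3 in the E15.5 controls, 29.6 and 31.0 in MOF cKO 5 and 6, 22.3 and 11.2 in the E16.5 controls, 10.4 and 10.1 in the E16.5 MOF cKO, 21.4 in the E17.5 control and 23.1 in the QPC cKO. Hoxa7, the last of the 10, came to 16.3 and 18.6 in the E15.5 controls, 22.4 and 19.8 in MOF cKO 5 and 6, 19.2 and 26.6 in the E16.5 controls, 17.6 and 23.7 in the E16.5 MOF cKO, 15.1 in the E17.5 control and 17.4 in the QPC cKO, the smallest range of levels in this group of genes.

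Epithelial cells were led by Hoxa7 instead. It read 98.1 and 114 in the E15.5 controls, 81.3 and 105 in MOF cKO 5 and 6, 114 and 148 in the E16.5 controls, 32.9 and 32.5 in the E16.5 MOF cKO, 101 in the E17.5 control and 27.8 in the QPC cKO, so that the E16.5 MOF cKO and the QPC cKO lay below the others. Hoxc8 was second, with 34.7 and 38.6 in the E15.5 controls, 49.4 and 49.0 in MOF cKO 5 and 6, 63.3 and 50.02 in the E16.5 controls, 19.0 and 28.7 in the E16.5 MOF cKO, 74.3 in the E17.5 control and 33.5 in the QPC cKO. Hoxb2 came next, with 31.6 and 29.1 in the E15.5 controls, 29.8 and 30.1 in MOF cKO 5 and 6, 42.8 and 41.3 in the E16.5 controls, 12.1 and 16.2 in the E16.5 MOF cKO, 42.1 in the E17.5 control and 46.9 in the QPC cKO. For both, the E16.5 MOF cKO lay below the E16.5 controls, whereas at E15.5 the MOF cKO lay above the controls for Hoxc8 and among them for Hoxb2. Hoxb4, known for its role in blood stem cells, read 17.52 and 16.8 in the E15.5 controls, 31.8 and 23.8 in MOF cKO 5 and 6, 18.4 and 27.7 in the E16.5 controls, 17.3 and 27.5 in the E16.5 MOF cKO, 33.9 in the E17.5 control and 38.7 in the QPC cKO. Hoxa5, which acts in lung and at the neck-to-thorax boundary, read 22.7 and 26.3 in the E15.5 controls, 26.6 and 29.8 in MOF cKO 5 and 6, 18.2 and 31.5 in the E16.5 controls, 8.66 and 8.75 in the E16.5 MOF cKO, 36.2 in the E17.5 control and 35.9 in the QPC cKO. Hoxc4 read 17.7 and 16.96 in the E15.5 controls, 20.5 and 24.98 in MOF cKO 5 and 6, 26.7 and 27.8 in the E16.5 controls, 10.4 and 16.2 in the E16.5 MOF cKO, 35.1 in the E17.5 control and 28.1 in the QPC cKO, with the lowest value in an E16.5 MOF cKO library of few cells.

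The comparison of epithelial cells with fibroblasts within the 5 control libraries asked whether the 2 layers of the same skin carried the same code. Of 34 members tested 28 differed, 15 higher in epithelial cells and 13 higher in fibroblasts (edgeR's quasi-likelihood test with the library as a block, adjusted p under 0.05 over all genes). Over all genes 9109 of 15870 passed, 57.4% of those tested, with 29% higher in epithelial cells and 28.4% higher in fibroblasts. The members' median log2 difference was -0.17 beside 0.03 over all genes. In HoxA and HoxB the front members were higher in epithelial cells and group 9 was higher in fibroblasts, whereas HoxC and HoxD showed no such turn. The 15 higher in epithelial cells included Hoxa2 to Hoxa7, Hoxb2 to Hoxb8 and Hoxc13, and the 13 higher in fibroblasts were Hoxa9, Hoxa11, Hoxb9, 5 HoxC genes and 5 HoxD genes. Of the 28, 20 passed in every one of the alternative fits in which they were tested, and Hoxb9, Hoxa9, Hoxc11, Hoxd1, Hoxd3, Hoxd4, Hoxd8 and Hoxd9 failed in at least 1. Hoxa13, Hoxb1, Hoxc12, Hoxd12 and Hoxd13 had too few UMIs to be tested.

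**Figure D2:**
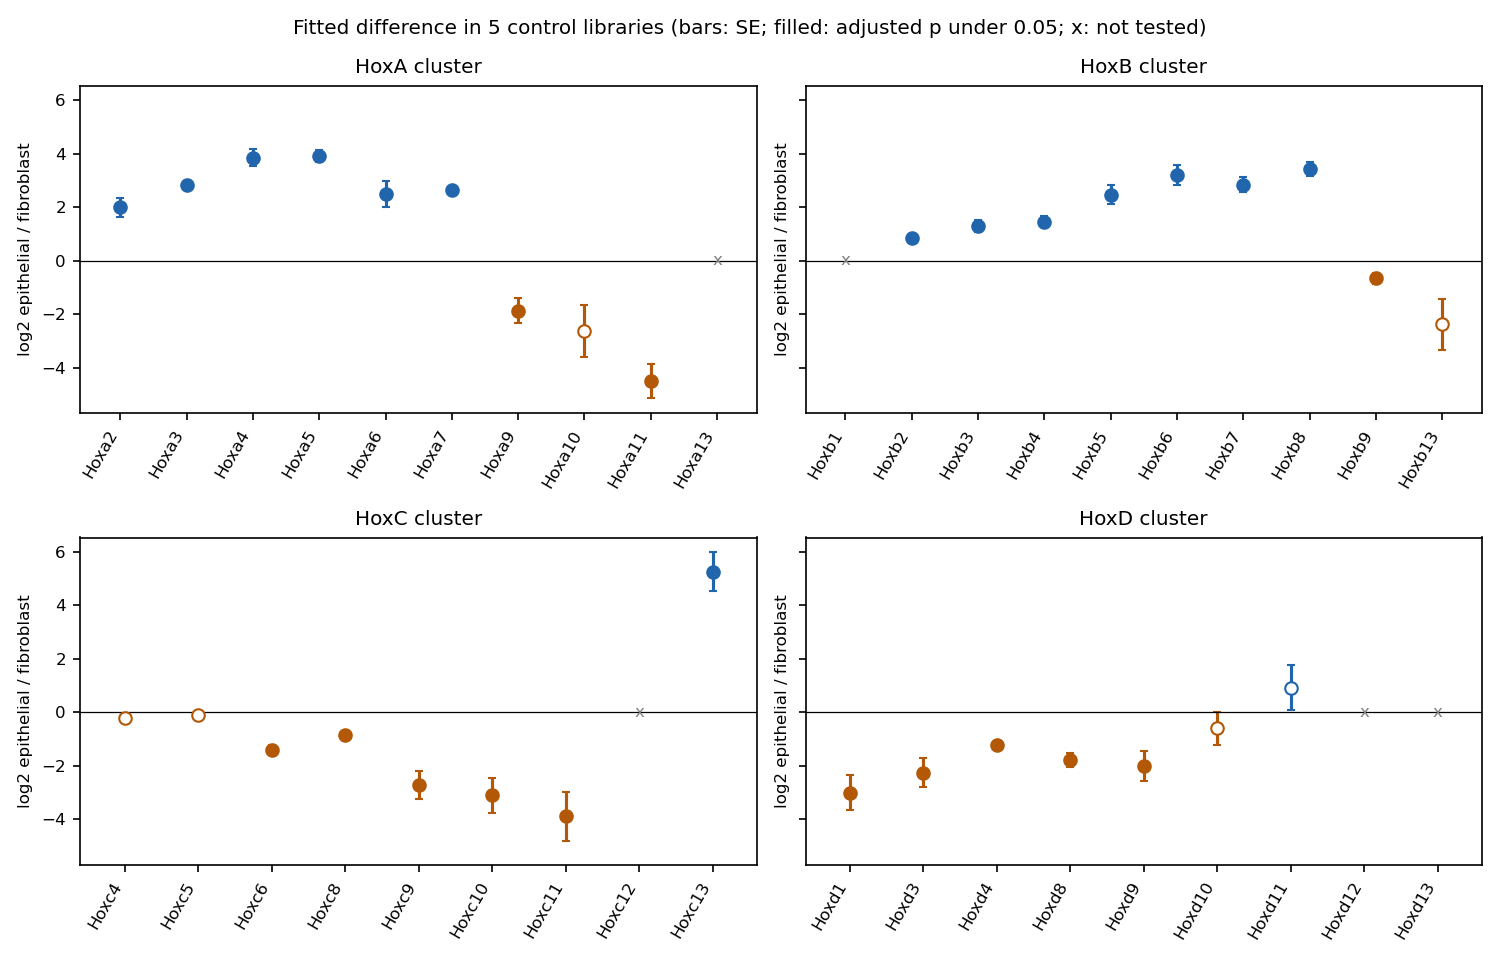
Fitted log2 difference between epithelial cells and fibroblasts in the 5 control libraries for each Hox member reported by name, in cluster order, with the standard error as a bar, filled points at adjusted p under 0.05 and an x for members not tested. In HoxA and HoxB the sign changes from positive to negative between paralog groups 7 or 8 and 9, whereas in HoxC and HoxD all called members except Hoxc13 are negative.

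In HoxA the front genes were higher in the epithelium. Values follow in the order E15.5 control 2 and 3, E16.5 control 1 and 2, and E17.5 control. Hoxa2, which patterns the pharyngeal arches, read 5.16, 3.61, 9.60, 12.0 and 7.08 in epithelial cells against 1.94, 1.99, 1.25, 1.33 and 1.94 in fibroblasts. Hoxa3, needed for thymus and parathyroid, read 6.02, 6.47, 5.45, 6.20 and 7.95 in epithelial cells against 0.822, 0.987, 0.695, 1.06 and 1.11 in fibroblasts. Neither had overlapping values between the layers. Hoxa4, a cervical gene, read 6.32, 6.11, 2.08, 3.83 and 5.29 in epithelial cells against 0.523, 0.508, 0.278, 0.0664 and 0.389 in fibroblasts. Hoxa5 read 22.7, 26.3, 18.2, 31.5 and 36.2 in epithelial cells against 2.0, 2.35, 0.695, 1.19 and 3.05 in fibroblasts, a log2 difference of 3.90 ± 0.23, adjusted p = 0.00018. Its neighbour Hoxa6 was scarcer, at 1.41, 1.18, 0.259, 0.264 and 1.88 in epithelial cells against 0.262, 0.247, 0.278, 0 and 0.222 in fibroblasts, and was higher in epithelial cells in 4 of 5 libraries. Hoxa7 had the smallest error of the cluster, at 2.66 ± 0.06, adjusted p = 4.0e-05 on the log2 scale.

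Behind Hoxa7 the direction turned. Hoxa9 read 2.82, 3.87, 12.5, 2.64 and 10.8 in epithelial cells against 22.3, 28.7, 21.4, 18.2 and 12.0 in fibroblasts, a log2 difference of -1.86 ± 0.48, adjusted p = 0.016. It was higher in fibroblasts in 5 of 5 libraries, but lost its call without any one of E15.5 control 2, E15.5 control 3 or E16.5 control 2. Hoxa10 read 0.441, 0.486, 13.5, 0.396 and 1.42 in epithelial cells against 9.29, 13.97, 23.2, 10.0 and 0.916 in fibroblasts and was not called, at -2.62 ± 0.97, adjusted p = 0.057, the E17.5 control being the 1 library with the higher value in epithelial cells. Without that library it was called. Hoxa11, a limb and uterus gene, read 0, 0.0174, 0.259, 0 and 0 in epithelial cells against 0.0748, 1.001, 3.48, 0.0664 and 0 in fibroblasts, where E16.5 control 1 was highest in both layers.

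In HoxB the members up to Hoxb8 were higher in epithelial cells. Hoxb3 read 10.8, 10.4, 5.19, 6.86 and 15.9 in epithelial cells against 5.35, 2.52, 2.78, 2.92 and 8.47 in fibroblasts, and the layers overlapped. Hoxb5 read 4.43, 3.61, 6.49, 6.73 and 7.26 in epithelial cells against 1.33, 0.421, 0.417, 1.26 and 2.28 in fibroblasts. Hoxb6 read 9.96, 10.3, 13.5, 14.7 and 15.7 in epithelial cells against 1.38, 0.537, 0.974, 1.53 and 3.83 in fibroblasts. Hoxb7 read 21.8, 21.4, 29.6, 32.7 and 23.0 in epithelial cells against 4.49, 1.74, 3.06, 4.31 and 5.72 in fibroblasts. From Hoxb5 to Hoxb8 the layers did not overlap in any control. Hoxb8, known in the central nervous system and in myeloid cells, read 20.1, 19.9, 28.8, 30.1 and 24.9 in epithelial cells against 2.17, 1.39, 1.81, 2.52 and 4.50 in fibroblasts, a log2 difference of 3.42 ± 0.27, adjusted p = 0.00035. Hoxb2 and Hoxb4 were called with smaller differences, 0.85 ± 0.10 and 1.46 ± 0.21. Hoxb9 pointed the other way at -0.66 ± 0.22, adjusted p = 0.041, with 9.45, 9.08, 11.2, 8.84 and 25.3 in epithelial cells against 21.6, 22.3, 22.3, 11.2 and 21.4 in fibroblasts, and it lost its call in 6 alternatives. Hoxb13, a gene of the tail end and prostate, was not called.

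Promoter sequence is shown for 4 members on either side of these turns: Hoxa5 and Hoxa7, higher in epithelial cells, Hoxa9 behind them, higher in fibroblasts, and Hoxb8, the last epithelial member of HoxB. Each window is 250 bases before to 50 after the gene's start in RefSeq on GRCm38.p6, 5′ to 3′ on the gene's strand. The windows are chr6:52204538-52204837, chr6:52218524-52218823 and chr6:52227321-52227620 on the minus strand and chr11:96281655-96281954 on the plus strand. GENCODE places the upstream ends of Hoxa7 and Hoxa9 further out, at 52221854 and 52231089, so both windows lie inside those genes. The end of the window was found in a GENCODE transcript of its gene for 3 of the 4. Capitals mark TTTATG, a letter run contained in known binding sites of Cdx factors, which set Hox boundaries in the early embryo, and both strands were searched.
Hoxa5: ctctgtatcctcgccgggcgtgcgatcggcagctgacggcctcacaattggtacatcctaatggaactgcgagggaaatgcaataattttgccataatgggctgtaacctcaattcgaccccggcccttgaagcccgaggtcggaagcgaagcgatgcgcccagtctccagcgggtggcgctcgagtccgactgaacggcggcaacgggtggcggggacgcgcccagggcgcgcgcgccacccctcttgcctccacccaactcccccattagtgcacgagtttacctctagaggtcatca
Hoxa7: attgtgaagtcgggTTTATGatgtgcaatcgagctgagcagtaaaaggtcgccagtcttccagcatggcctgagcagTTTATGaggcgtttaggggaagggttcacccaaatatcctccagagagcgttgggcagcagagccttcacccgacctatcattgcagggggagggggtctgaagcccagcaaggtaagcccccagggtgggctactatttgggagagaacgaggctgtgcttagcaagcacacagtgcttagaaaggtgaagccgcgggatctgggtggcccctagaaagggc
Hoxa9: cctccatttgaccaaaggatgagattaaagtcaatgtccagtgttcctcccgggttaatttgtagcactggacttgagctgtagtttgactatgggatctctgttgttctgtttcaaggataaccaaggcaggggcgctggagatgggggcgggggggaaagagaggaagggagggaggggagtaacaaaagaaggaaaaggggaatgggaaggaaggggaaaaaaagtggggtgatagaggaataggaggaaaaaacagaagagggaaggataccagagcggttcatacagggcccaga
Hoxb8: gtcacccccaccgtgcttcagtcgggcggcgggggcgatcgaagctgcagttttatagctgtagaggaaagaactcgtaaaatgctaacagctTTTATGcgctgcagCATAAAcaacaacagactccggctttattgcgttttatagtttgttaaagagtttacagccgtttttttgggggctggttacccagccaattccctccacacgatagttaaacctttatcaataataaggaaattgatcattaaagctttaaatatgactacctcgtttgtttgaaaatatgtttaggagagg
Hoxa7 and Hoxb8 each held 2 matches, and Hoxa5 and Hoxa9 held none. Of 32851 promoter windows of this length, 3893 (11.9%) held a match. The table held 22 of the 39 members, of which Hoxa7, Hoxb8, Hoxd3, Hoxd4 and Hoxd11 had 1 or 2 matches, that is, members called in either direction and 1 not called. Windows of Hoxa5, Hoxa7, Hoxa9 and Hoxb8 held 29, 9, 4 and 13 CpG dinucleotides, against a median of 7. Cdx2 and Cdx4 had no UMI in either layer and Cdx1 had 6, all in fibroblasts.

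HoxC favoured fibroblasts, with 1 exception at its 5′ end. Hoxc8 was -0.85 ± 0.11, adjusted p = 0.0014 and Hoxc6 was -1.40 ± 0.17, adjusted p = 0.0014 on the log2 scale. The differences were larger further back: Hoxc9, with 2.14, 3.09, 20.5, 2.90 and 9.84 in epithelial cells against 30.2, 42.0, 44.9, 47.5 and 24.2 in fibroblasts, gave -2.72 ± 0.52, adjusted p = 0.0056. Hoxc10, with 1.48, 2.26, 23.9, 1.58 and 5.01 in epithelial cells against 38.0, 48.0, 59.7, 36.2 and 12.2 in fibroblasts, gave -3.11 ± 0.66, adjusted p = 0.0080. Hoxc11, a hindlimb gene, read 0, 0.0174, 0.778, 0 and 0 in epithelial cells against 0.393, 0.943, 2.50, 0.398 and 0 in fibroblasts. Hoxc13 was the exception, at 2.86, 1.63, 2.08, 1.72 and 4.58 in epithelial cells against 0, 0.131, 0, 0.0664 and 0.111 in fibroblasts, a log2 difference of 5.25 ± 0.72, adjusted p = 0.0019. It did not overlap between layers in any control. Hoxc4 and Hoxc5 were not called, with differences of -0.23 ± 0.11 and -0.11 ± 0.12.

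HoxD favoured fibroblasts in all 5 of its called members. Hoxd8 gave -1.79 ± 0.25, adjusted p = 0.0020, with 7.21, 6.60, 9.34, 2.24 and 35.9 in epithelial cells against 35.9, 31.1, 20.9, 15.1 and 68.6 in fibroblasts. Hoxd4, next to Hoxd3 in the cluster, read 1.96, 1.81, 8.04, 5.41 and 5.91 in epithelial cells against 6.69, 5.28, 14.6, 12.9 and 11.3 in fibroblasts. Hoxd3 read 0.463, 0.278, 0.519, 0 and 2.15 in epithelial cells against 2.86, 3.13, 0.695, 0.929 and 4.50 in fibroblasts. All 3 were higher in fibroblasts in 5 of 5 libraries. Hoxd1 read 0.110, 0.0347, 0.259, 0 and 1.51 in epithelial cells against 1.36, 1.09, 1.95, 1.19 and 3.25 in fibroblasts. Hoxd9 read 0.441, 0.295, 5.45, 1.98 and 3.603 in epithelial cells against 4.88, 4.70, 6.68, 5.31 and 8.50 in fibroblasts. In each of these 5 genes the E17.5 control had the highest level in epithelial cells among the controls, or next to it, and the ranges of the layers overlapped. Hoxd10 and Hoxd11 were not called.

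Fibroblast transcripts inside epithelial cells moved with some of these values. Epithelial cells with 10 or more UMIs of Col1a1 and Col3a1 made up 7.42% to 13.9% of the class in 6 libraries, but 38.3% in E16.5 control 1, 30% and 48.7% in the E16.5 MOF cKO and 60.1% in the E17.5 control. Summed Hoxa9, Hoxa10, Hoxc9 and Hoxc10 stood at 20.6 to 139 CPM in the collagen-bearing epithelial cells of the 8 libraries outside the E16.5 MOF cKO and at 2.42 to 12.7 in those with less collagen. The E16.5 MOF cKO libraries, with 0 to 3 such UMIs in each part, did not show this, at 0 against 10.4 in MOF cKO 1 and 5.02 against 4.93 in MOF cKO 2. When epithelial cells were held to under 10 collagen UMIs and fibroblasts to stricter limits, 28 of 31 members tested were called, 15 higher in epithelial cells and 13 in fibroblasts. Over all genes 8858 of 14369 were called under these limits, 4704 higher in epithelial cells and 4154 in fibroblasts.

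Endothelial, Schwann and muscle cells of the same skin took most of their Hox UMIs from clusters other than HoxC, whereas mural cells, like fibroblasts, took most from HoxC. Classes were set by marker lists and pooled over the 10 libraries as a description. Endothelial cells, 665 in all, took 54.3% of their Hox UMIs from HoxD, 36.9% from HoxB and 0.51% from HoxC. Their leading members were Hoxd9 at 133 CPM (range over libraries 98.4 to 222) and Hoxd8 at 99.2 (72.9 to 237). Hoxd10, scarce in fibroblasts and epithelium, stood at 39.6. HoxD took 50% to 63.7% in the separate endothelial libraries and at most 19.5% in fibroblasts and 8.27% in epithelial cells.

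Schwann cells, 517 in all, took 77.7% of their Hox UMIs from HoxB, and Hoxb9 alone read 170.3 (129 to 218). Hoxb7 was second at 32.6. Muscle cells, 410 in all, took 55.5% from HoxA, with Hoxa7 at 59.2, Hoxa9 at 49.1 and Hoxa10 at 31.9, and Hoxd8 stood between the last 2 at 36.8. Mural cells of the vessel wall, 651 in all, took 60.1% from HoxC, close to the 58.7% of fibroblasts. Over libraries this share ran from 32.5% to 72.3% in mural cells and from 54.6% to 66.4% in fibroblasts. Mural cells were led by Hoxc8 at 84.9 and Hoxc6 at 44.4. Immune cells read 10.3 for all members together and melanocytes 21.0, the lowest of the 8 classes. The part that fibroblast RNA plays in the small classes was not tested.

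**Figure D3:**
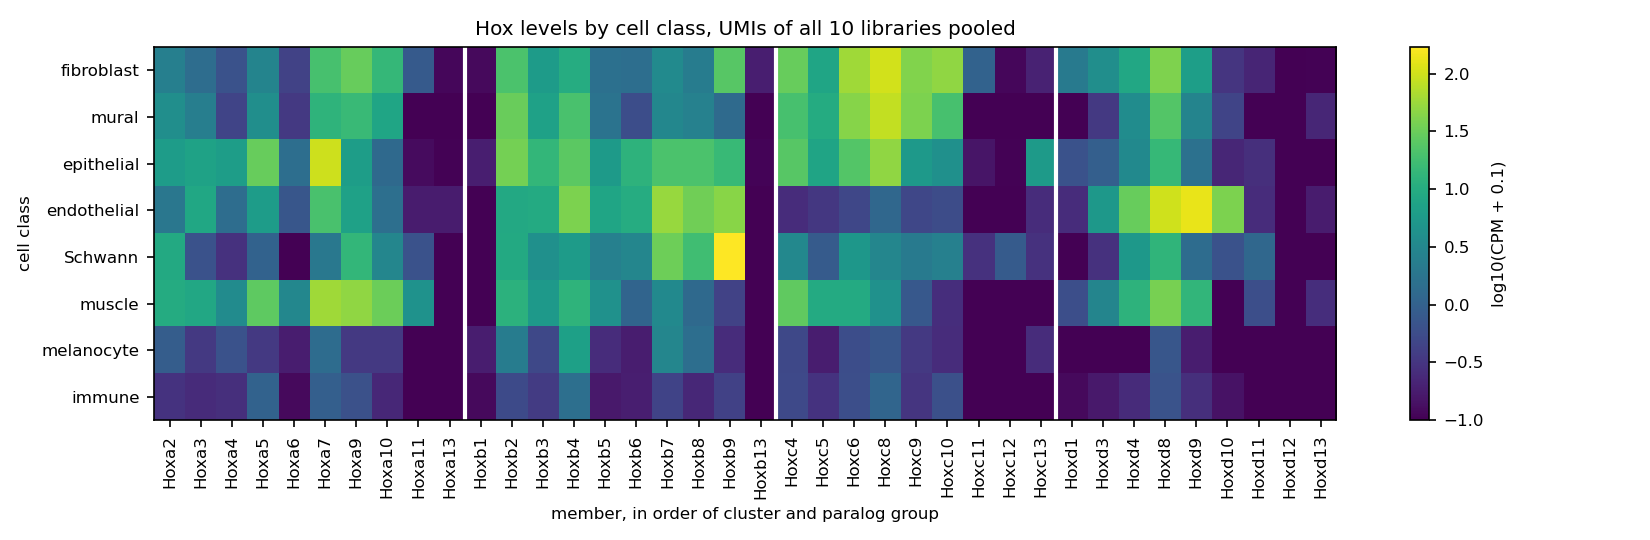
Level of each Hox member reported by name (columns, in cluster order) in each of 8 cell classes (rows), as colour on a log10 scale of CPM plus 0.1, with the UMIs of the 10 libraries pooled. The brightest cells are Hoxb9 in Schwann cells, Hoxd8 and Hoxd9 in endothelial cells, Hoxa7 in epithelial cells and Hoxc8 in fibroblasts and mural cells, and melanocytes and immune cells are darker for most members.

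Position along the clusters differed too. Paralog groups 9 to 13 gave 62.2% of Hox UMIs in Schwann cells, 40.3% in endothelial cells, 34.2% in fibroblasts, 28.2% in muscle, 24.0% in mural cells and 8.73% in epithelial cells. By library, the share in fibroblasts was 32.7 and 39.3% in the E15.5 controls, 38.1 and 35.2% in MOF cKO 5 and 6, 39.0 and 29.2% in the E16.5 controls, 32.6 and 28.6% in the E16.5 MOF cKO, 16.1% in the E17.5 control and 34.9% in the QPC cKO. The E17.5 control stood alone at the low end, and control and MOF cKO ranges overlapped at both stages. In epithelial cells the share was 5.53 and 5.61%, 11.5 and 7.51%, 16.7 and 4.15%, 15.2 and 6.28%, 10.2% and 12.6% in the same order, and E16.5 control 1 was highest. Collagen-bearing cells made up 38.3% of its epithelial cells, beside 60.1% in the E17.5 control, and their part in the share was not tested. The study's methods name total dorsal skin as the input, and the front and back limits of each piece are not given in the sources used here, so a different stretch of skin and a different expression cannot be told apart.

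**Figure D4:**
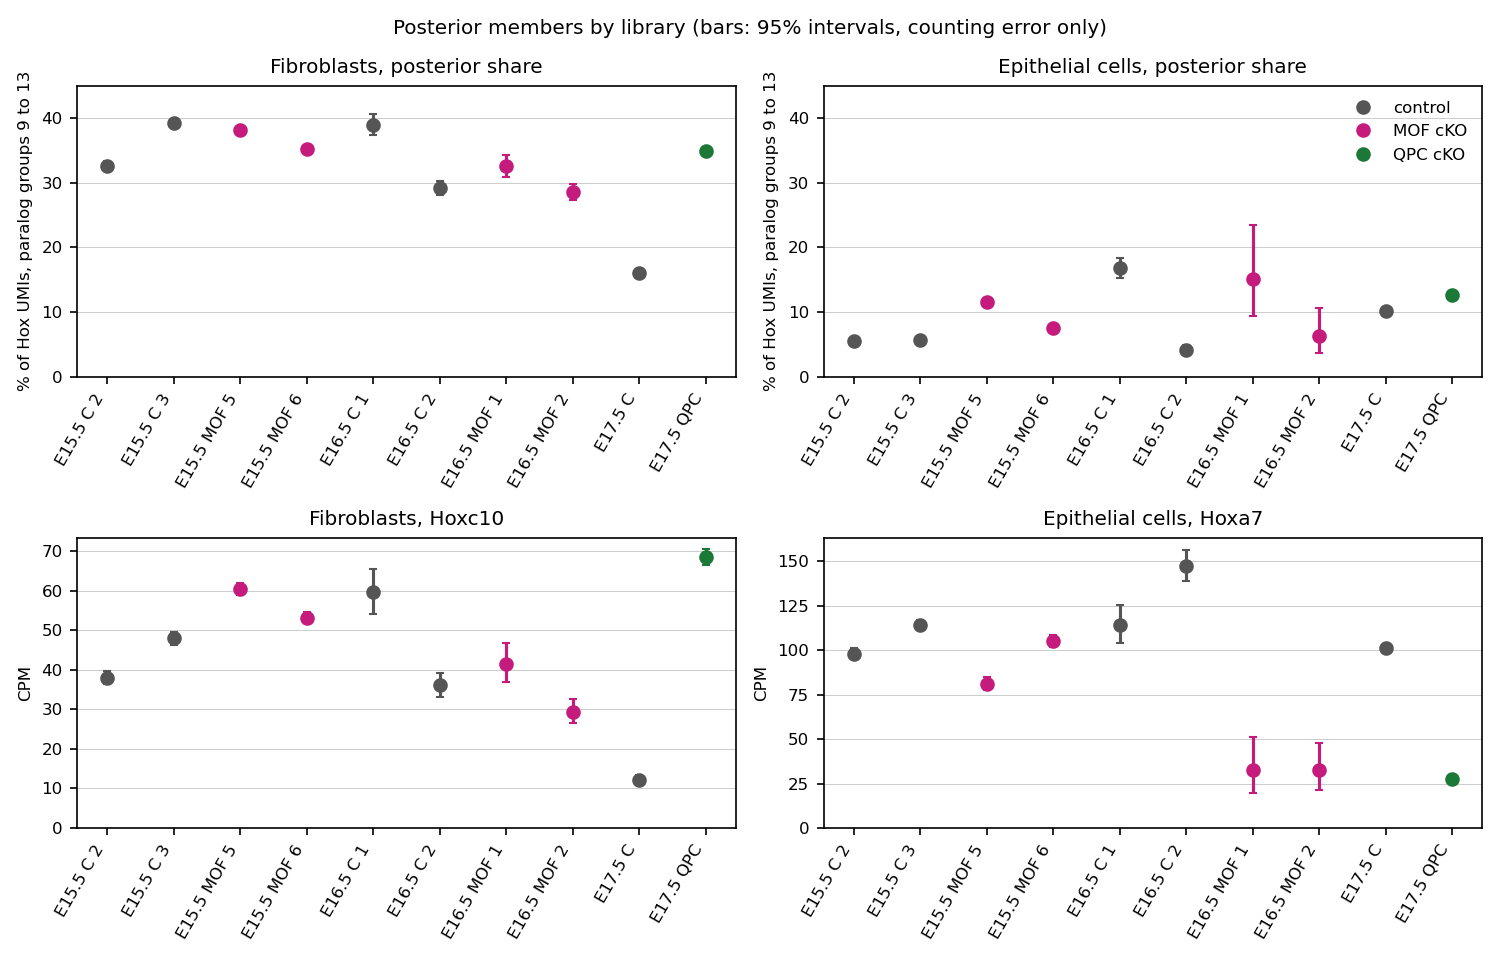
Share of Hox UMIs from paralog groups 9 to 13 (percent, upper panels) in fibroblasts and epithelial cells, and levels in CPM of Hoxc10 in fibroblasts and Hoxa7 in epithelial cells (lower panels), with 1 point for each of the 10 libraries and bars for the 95% interval of counting error. The E17.5 control has the lowest share in fibroblasts, 16.1%, beside 28.6% to 39.3% in the other 9 libraries, and Hoxa7 is low in both E16.5 MOF cKO libraries and the QPC cKO.

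Fibroblasts of a single library did not all carry the same code. A Hoxc10 UMI was found in 10.7% to 45.04% of fibroblasts, or 5.10% to 24.8% when thinned to 5000 UMIs. Cells without such a UMI may still hold the transcript, so these are not shares of expressing cells. In immune cells the share was 0% to 2.83%, or 0% to 0.508% when thinned, at the depths given above. Within each library, fibroblasts with a Hoxc10 UMI were set against those without, for genes with at least 100 UMIs over both parts, and above or below means that the exact 95% interval of the ratio, which covers counting error only, left out 1. The part with a Hoxc10 UMI had the higher median depth in 9 of 10 libraries, with the widest gap in E16.5 control 2, at 11022 against 9264 UMIs. Since Hoxc10 chose the cells, these ratios are a description. Hoxa10 was above in 8 of 8 libraries with enough UMIs, by a median of 3.14 on the log2 scale (2.38 to 3.71). Hoxa9 was above in 10 of 10 by 1.55 (1.21 to 2.31), Hoxb9 in 9 of 9 by 1.49 (0.83 to 1.98) and Hoxc9 in 10 of 10 by 1.01 (0.64 to 1.68). Hoxc11, next to Hoxc10 in the cluster, was above in both libraries that held enough UMIs, by 3.72 and 3.90.

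Members further forward went the other way. Hoxc8 was below in 10 of 10 libraries, by a median of -0.65 (-0.90 to -0.26), and Hoxd8 in 10 of 10, by -0.57. Hoxa7 was below in 9 of 10, by -0.89 (-1.47 to -0.21), and Hoxc4 in 9 of 10, by -0.89. Hoxd1 was below in 4 of 4, Hoxc5 in 5 of 7 and Hoxb7 in 5 of 6. Front members were not uniformly lower, since Hoxa5 was above in 5 of 6 libraries, by a median of 1.49, and Hoxc6 in 7 of 10, by 0.29. Hoxc5 spans Hoxc6, Hoxc8, Hoxc9 and Hoxc10 on the same strand in the annotation, so its counts are uncertain. Among other positional genes, Pax1, which acts in sclerotome and shoulder, was below in 4 of 4 libraries by -1.75, whereas Emx2, of the limb girdles, was above in 7 of 8 by 0.43 and Tbx18 in 8 of 10 by 0.31. The TALE cofactors moved less: Meis1 was above in 6 of 10 by 0.24 and Meis2 above in 5 of 10 by 0.12.

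**Figure D5:**
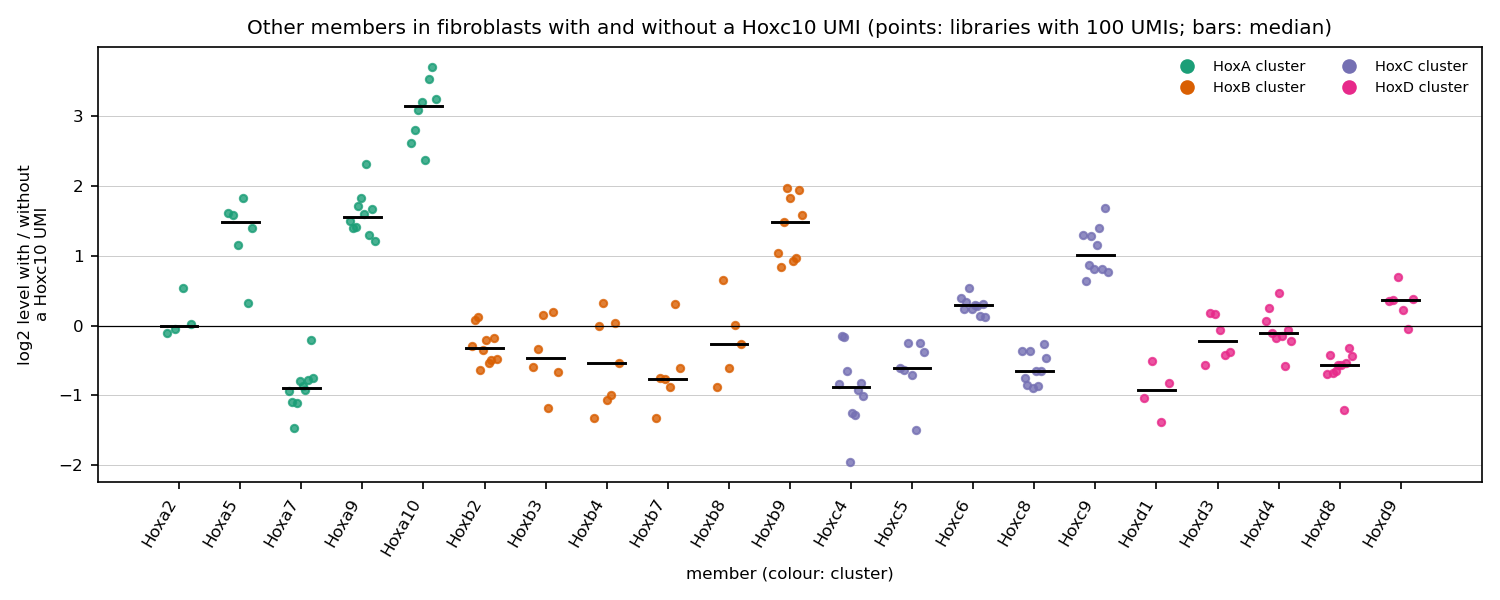
Log2 ratio of CPM between fibroblasts with and without a Hoxc10 UMI, for the Hox members that reached 100 UMIs in at least 4 libraries, with a point for each such library and a bar at the median. Hoxa9, Hoxa10, Hoxb9 and Hoxc9 lie above 0 in each library with enough UMIs, and Hoxc8 and Hoxd8 lie below 0 in all 10.

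Loss of Mof in the epithelium was compared with controls at E15.5 and E16.5, in fibroblasts, which keep Mof, and in epithelial cells, with 2 libraries a group. No Hox member was called in any of the 4 comparisons (edgeR, adjusted p over all genes tested). In fibroblasts at E15.5 0 of 16268 genes were called, 0% of those tested, while 2538 had a p under 0.05 before adjustment and DESeq2 called 494. Of 32 members tested 7 had such a p, DESeq2 called 1 (Hoxb9), 30 of 32 had a positive difference and their median was 0.32 beside 0.00 over all genes; without MOF cKO 6 these were 22 of 32 and 0.17. Hoxb9 had the lowest p, at 0.44 ± 0.06, adjusted p = 0.18, with 21.6 and 22.3 in controls and 29.6 and 31.0 in MOF cKO. Hoxc8 gave 0.38 ± 0.13, adjusted p = 0.28 and Hoxc10 gave 0.38 ± 0.14, adjusted p = 0.28. At E16.5, 583 of 12569 genes were called, 4.64%, while 3172 had a p under 0.05 before adjustment and DESeq2 called 950. Of 24 members 0 were called, 0 had such a p and DESeq2 called 0. There 11 of 24 differences were positive and the median was -0.02 beside 0.01 over all genes, and from -0.12 to 0.19 without 1 library. Called genes were split into 305 higher and 278 lower, and with scaling by library size alone into 346 and 491, where the median over all genes was -0.11.

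In epithelial cells at E15.5, again 0 of 14625 genes were called (0%), while 1360 had a p under 0.05 before adjustment and DESeq2 called 140. None of 28 members tested was called by either tool, 9 had a p under 0.05 before adjustment, 24 had a positive difference and their median was 0.55 beside -0.01 over all genes, or 0.36 without MOF cKO 5. Collagen-bearing cells made up 7.44% and 7.42% of epithelial cells in controls 2 and 3 and 13.9% and 10.8% in MOF cKO 5 and 6. With stricter class limits, which hold epithelial cells to under 10 collagen UMIs, 21 of 24 differences were positive and the median was 0.42. Hoxc8 read 34.7 and 38.6 in controls and 49.4 and 49.0 in MOF cKO, a log2 difference of 0.56 ± 0.16, adjusted p = 0.50. Hoxb9 read 9.45 and 9.08 and 25.5 and 15.2, a difference of 1.305 ± 0.37, adjusted p = 0.50. Hoxc5 and Hoxb3 gave 1.002 ± 0.25 and 0.73 ± 0.18 with the same adjusted p. The values of the groups did not overlap for Hoxc8 or Hoxb9. One library decides this comparison: without MOF cKO 6, the mosaic embryo, 7015 of 15415 genes and 14 of 30 members were called, the genes split into 3209 higher and 3806 lower and the 14 members all higher, with MOF cKO 5 assumed to vary like the controls, and without MOF cKO 5 the count of genes was 14 and of members 0.

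In epithelial cells at E16.5, 578 of 9938 genes were called (5.82%), while 2792 had a p under 0.05 before adjustment and DESeq2 called 864. Of 18 members 0 were called, 3 had such a p and DESeq2 called 0. Only 5 of 18 differences were positive and the median was -0.56 beside -0.11 over all genes, and -0.94 beside -0.36 without MOF cKO 2, a library of 39 epithelial cells. With stricter class limits 2 of 14 were positive and the median was -0.90 beside -0.16. The filter on low counts kept members such as Hoxa2 and Hoxa3 through the controls. Their means were 10.8 and 5.83 CPM in controls, and 0.87 and 1.49 in the MOF cKO. Members kept in this way come out lower, so the members' sign count and median are partly set by the filter. Called genes were split into 465 higher and 113 lower. With scaling by library size alone they were split into 263 and 549, and the medians were -1.18 for the members and -0.71 over all genes. Hoxa7 came nearest, at -1.43 ± 0.35, adjusted p = 0.063, with 114 and 148 in controls and 32.9 and 32.5 in MOF cKO. The control values did not overlap those of the MOF cKO. It was called with library size alone (-2.01), without a filter on low counts (-1.53) and without control 1 (-1.75), and not in the other 9 alternatives, where its adjusted p ran from 0.052 to 0.26. Hoxa2 gave -3.27 ± 1.07, adjusted p = 0.12 and Hoxb2 gave -0.97 ± 0.35, adjusted p = 0.14. Hoxa2 was near the floor in the MOF cKO, with a mean of 0.87 CPM and an SD of 1.22. The Hoxa7 effect at E16.5 minus that at E15.5 was -1.44 ± 0.38, adjusted p = 0.14 and that of Hoxc8 was -1.25 ± 0.32, adjusted p = 0.14. The interaction called 15 of 13602 genes (0.11%), while 2211 had a p under 0.05 before adjustment. It called 0 of 28 members, 8 of which had such a p. The members' median in this interaction was -1.22 beside -0.27 over all genes. It is partly set by members near the floor in the E16.5 MOF cKO. Among these, Hoxa6, Hoxc10 and Hoxa10 had means of 0, 0.87 and 0.62 CPM there and differences of -5.67, -4.67 and -3.92. In fibroblasts the interaction called 188 of 14895 genes (1.26%), while 2784 had such a p. It called 0 of 32 members, 3 of which had such a p. DESeq2 was not run for the interaction.

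Differentiating epithelial cells had a lower Hox level, and they made up more of the epithelial cells in the E16.5 MOF cKO. Krt1 and Krt10 mark cells that have left the basal layer. Cells with at least 10 UMIs of these keratins had a lower summed Hox level than the other epithelial cells in 10 of 10 libraries, for example 269 against 366 CPM in E15.5 control 2 and 338 against 569 in E16.5 control 1. They made up 6.26% to 15.1% of epithelial cells in 8 libraries and 30% and 43.6% in E16.5 MOF cKO 1 and 2. There the summed level was 46.1 against 247 and 92.5 against 356. Hoxa7 in the cells with less keratin 1 and 10 read 49.9 and 51.9 in the E16.5 MOF cKO, and 114 and 148 in the same part of the E16.5 controls' cells. These parts hold 9 to 22 cells a library in the E16.5 MOF cKO, and their part in the E16.5 difference was not tested. The split was not repeated in epithelial cells with little collagen, and collagen-bearing cells made up 38.3% of epithelial cells in E16.5 control 1.

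Loss of Uqcrq was compared at E17.5 with 1 library a group, so there is no replicate check and no test. Differences are described by exact Poisson intervals, which cover counting error only, for genes that reached 100 UMIs in 1 of the libraries or both. In fibroblasts the intervals were apart for 53.5% of 12289 genes, 37.2% higher and 16.3% lower in the QPC cKO. Of 23 members, 10 were higher and 8 lower, and without the shared barcodes 8 and 9. Scaling with TMM factors moved the split of all genes from 4566 higher and 2004 lower to 3207 and 2686, and that of the members to 8 and 9.

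Among members with at least 100 UMIs in either library, the 3 highest ratios in fibroblasts were those of Hoxa10, Hoxc10 and Hoxa9. Hoxa10 stood at 0.916 in the control and 23.0 in the QPC cKO, a log2 ratio of 4.65 (4.15 to 5.19). Hoxc10 differed by 2.49 (2.35 to 2.63), Hoxa9 by 1.82 (1.67 to 1.97) and Hoxc9 by 1.01 (0.90 to 1.11). Without the shared barcodes the ratio of Hoxa10 was 4.63 (4.13 to 5.18) and that of Hoxc10 was 2.45 (2.31 to 2.59). Also higher in the QPC cKO were Hoxa5, at 3.05 in the control and 6.21 in the QPC cKO, and Hoxd9, at 8.50 in the control and 11.6 in the QPC cKO. Hoxa3 stood at 1.11 in the control and 2.46 in the QPC cKO and Hoxd4 at 11.3 in the control and 13.5 in the QPC cKO. Hoxc6 and Hoxc8 completed the 10.

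Of the HoxB members 6 were lower, and the intervals of Hoxb9 overlapped, at 21.4 in the control and 23.1 in the QPC cKO, although it was higher under stricter class limits, with 13 UMIs in the control. Hoxb6 stood at 3.83 in the control and 1.57 in the QPC cKO, a log2 ratio of -1.29 (-1.67 to -0.91), and Hoxb7 at 5.72 in the control and 2.69 in the QPC cKO, a ratio of -1.09 (-1.39 to -0.79). Hoxb4 stood at 18.0 in the control and 14.2 in the QPC cKO. Hoxb3 stood at 8.47 in the control and 6.73 in the QPC cKO and Hoxb8 at 4.50 in the control and 2.46 in the QPC cKO. With Hoxb2, Hoxc4 and Hoxd8 these were the 8 lower members. Under stricter class limits, which left 14 members with enough UMIs, 6 were higher and 0 lower, and Hoxb3, Hoxc6 and Hoxd8 turned. Of all 8122 genes with enough UMIs under these limits, 715 were higher and 561 lower.

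In epithelial cells at E17.5 the intervals were apart for 62.4% of 13024 genes, 29% higher and 33.4% lower. Of 29 members 8 were higher and 16 lower, or 7 and 17 without the shared barcodes. Hoxa7 differed by -1.87 (-1.97 to -1.76). Hoxb9 stood at 25.3 in the control and 3.77 in the QPC cKO, a ratio of -2.75 (-3.04 to -2.47), and Hoxd8 at 35.9 in the control and 7.75 in the QPC cKO, a ratio of -2.21 (-2.42 to -2.01). Hoxc8 differed by -1.15 (-1.25 to -1.05). Hoxa9 stood at 10.8 in the control and 5.52 in the QPC cKO and Hoxc9 at 9.84 in the control and 5.24 in the QPC cKO. Collagen-bearing cells made up 60.1% of epithelial cells in the control and 13.5% in the QPC cKO. With epithelial cells held to under 10 collagen UMIs, Hoxa7 differed by -2.50 (-2.62 to -2.39) and Hoxb9 by -3.70 (-4.12 to -3.31).

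Further members lower in the QPC cKO were Hoxb7, at 23.0 in the control and 14.5 in the QPC cKO, and Hoxb8, at 24.9 in the control and 9.82 in the QPC cKO. Hoxc6 stood at 42.9 in the control and 28.7 in the QPC cKO, and Hoxb6 at 15.7 in the control and 9.12 in the QPC cKO. Hoxa6 stood at 1.88 in the control and 0.629 in the QPC cKO and Hoxd9 at 3.603 in the control and 1.19 in the QPC cKO. Hoxd1, at 1.51 in the control and 0.699 in the QPC cKO, Hoxd3, at 2.15 in the control and 0.734 in the QPC cKO, Hoxd4, at 5.91 in the control and 4.16 in the QPC cKO, and Hoxc4 were the others. Under stricter class limits Hoxd1, Hoxd3 and Hoxd4 turned, with fewer than 100 UMIs each, and none of the 3 had enough UMIs to be counted.

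Hoxc13, the hair gene, had the largest difference upwards in epithelial cells, at 4.58 in the control and 26.1 in the QPC cKO, a ratio of 2.51 (2.32 to 2.70), and 1.96 (1.74 to 2.19) with stricter limits. It was the 1 member still higher there, beside 14 lower. Of all 10958 genes with enough UMIs under these limits, 1511 were higher and 2658 lower. Hoxa4 stood at 5.29 in the control and 9.08 in the QPC cKO and Hoxa2 at 7.08 in the control and 10.8 in the QPC cKO. Hoxa3 stood at 7.95 in the control and 12.0 in the QPC cKO and Hoxc10 at 5.01 in the control and 8.10 in the QPC cKO. Hoxb2 and Hoxb4 were also higher. Several of these small differences turned under stricter limits.

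Other lists around the Hox system were counted in the same fits. Between layers in controls, 10 of 11 TALE cofactors were called, 5 in each direction, with Meis1 at -1.94 ± 0.30 and Meis2 at -0.68 ± 0.09, both lower in epithelial cells, and Pbx2, Pbx3, Pbx4, Tgif1 and Tgif2 higher. The share called over all genes was 57.4%. Of 17 chromatin and upstream regulators 14 were tested and 8 called, near that share, with Polycomb members Cbx2, Ezh2, Suz12, Eed and Jarid2 higher in epithelial cells and Rnf2, Men1 and Gdf11 higher in fibroblasts. Of 12 positional factors 10 were tested and 9 called, with Lmx1b higher in epithelial cells and Tbx15, Tbx18, Shox2, En1, Emx2, Alx4, Pax1 and Tbx5 higher in fibroblasts. In the MOF comparisons, Shox2 was called lower in fibroblasts at E16.5 (-1.07 ± 0.14, adjusted p = 0.032) and Jarid2 higher in epithelial cells at E16.5 (1.69 ± 0.36, adjusted p = 0.048), and no other gene of the 3 lists was called. Neither call held throughout. Without any 1 of the 4 libraries the adjusted p of Shox2 was 0.053 to 0.10, with stricter class limits it was 0.088, and its difference stayed between -0.96 and -1.21. The call of Jarid2 was lost without control 1, MOF cKO 1 or MOF cKO 2 (adjusted p 0.078 to 0.24), with the replicate block (0.057) and in 4 other settings, and under stricter class limits its difference was 0.21.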

How the data were processed

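Per the labels, dissociated mouse back skin was loaded on 10x Genomics 3′ chips. The authors aligned the reads and counted UMIs with Cell Ranger (versions 1.3.1 and 6.1.2 in the submitters' processing notes) against mm10, and deposited matrices of whole UMI counts per gene and barcode with no normalization. Barcodes with 1000 to 6000 genes and under 10% mitochondrial UMIs were kept, and no doublet caller was run; the upper limit on genes removes part of the doublets. Fibroblasts held at least 30 UMIs of Col1a1 and Col3a1 and under 10 of Krt5 and Krt14, epithelial cells at least 10 of Krt5 and Krt14, and a cell outside both classes was placed when its UMIs summed to at least 10 over exactly 1 of 6 marker lists (immune, endothelial, Schwann, melanocyte, muscle, mural).

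UMIs were summed per library and class, and every comparison with replicates was fitted on all genes with edgeR's quasi-likelihood test (filterByExpr, TMM, Benjamini-Hochberg, threshold 0.05), with the library as a block where both classes of a library entered; DESeq2 was the alternative. The fitting code was tested on simulated data. At E17.5, with 1 library a group, exact Poisson intervals (95%) were used; they and the exact binomial intervals cover counting error only. Replicate libraries differed by more than sampling noise, but nothing in the labels names a litter, so p-values measure the spread between these libraries.

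Values in every library are given for the 10 highest members in fibroblasts and the 6 highest in epithelial cells. Other members called between the classes are given in the control libraries. E17.5 members with 100 or more UMIs and intervals apart are given in both E17.5 libraries. Of the members and of the listed cofactors, 1 each is counted but not reported by name here. The members and all gene lists were chosen with earlier results of these data known. Gene positions came from GENCODE (GRCm38) and promoters from RefSeq (GRCm38.p6). Software was R 4.3.3, edgeR 4.0.16, DESeq2 1.42.0, Python 3.11.15, numpy 2.4.6, pandas 2.3.3 and scipy 1.17.1.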

Additional observations from a re-analysis of the deposited data

How the results depend on the processing

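Members called in the MOF comparisons changed in few settings, and the cause was not tested. Fibroblasts at E15.5 gave 1 (Hoxb9) without the filter on low counts and 1 with DESeq2. Epithelial cells at E16.5 gave 1 with library-size scaling and 4 without the filter, the stage difference gave 2 in epithelial cells without the filter, and leaving out libraries gave 0 to 14 in epithelial cells at E15.5 (14 without MOF cKO 6), 0 to 2 at E16.5 and 0 to 1 for the stage difference in fibroblasts (1, Hoxb9, without E16.5 control 2). Called genes over all genes moved more. In fibroblasts at E15.5 they numbered 222 without the filter, 494 with DESeq2, 1 with no upper limit on genes and 0 to 114 without 1 library; at E16.5 they numbered 1752, 950 with DESeq2, 24 with stricter class limits and 0 to 369. In epithelial cells at E15.5 they numbered 1 without the filter, 140 with DESeq2 and 1 to 7015 without 1 library; at E16.5 they numbered 2007 without the filter, 316 under 5% mitochondrial UMIs, 319 with no upper limit and 39 to 1112. The stage difference called 314 genes with library-size scaling, 510 without the filter, 55 with stricter limits and 0 to 844 without 1 library in fibroblasts, and 3, 664, 57 and 0 to 207 in epithelial cells. Between the classes, 3875 genes and 20 members were called with no replicate block, and 6730 to 9008 genes and 22 to 30 members without 1 control. At E16.5 same-numbered libraries did not deviate together (correlations of -0.02 and -0.02); the replicate block called 576 genes in fibroblasts and 549 in epithelial cells, with 0 members in both. At E15.5 no paired analysis was possible because the groups share no number.

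Several single differences changed sign (log2 values): Hoxa7 in epithelial cells at E15.5 was -0.19 to 0.056 without 1 library, positive without control 3, and Hoxc8 in fibroblasts at E16.5 ran from -0.30 to 0.30 without 1 library, with 0.30 without control 2 and 0.045 without MOF cKO 1, and 0.0038 with the replicate block. At E17.5 stricter class limits gave -0.0086 for Hoxc6, 0.42 for Hoxd8 and 0.65 for Hoxb3 in fibroblasts, and -0.046 for Hoxa2, -0.25 for Hoxb4, 0.16 for Hoxd1, -0.15 for Hoxb2, 0.42 for Hoxd3, -0.13 for Hoxa3 and 0.53 for Hoxd4 in epithelial cells; with no upper limit on genes Hoxb4 was -0.087 and Hoxb2 -0.0033. Stricter limits left 6 members and 1276 genes with intervals apart in fibroblasts and 15 and 4169 in epithelial cells. The share of Hox UMIs from paralog groups 9 to 13 under stricter limits, under 5% mitochondrial UMIs and with no upper limit was 4.16%, 5.50% and 7.04% in E15.5 control epithelial cells, 8.74%, 15.8% and 12.0% in QPC cKO and 7.02%, 12.3% and 9.46% in the E17.5 control; fibroblasts of QPC cKO read 34.3% with no upper limit and of the E17.5 control 13.5% with stricter limits. In E16.5 epithelial cells the share from paralog groups 9 to 13 was 10.5% in control and 10.7% in MOF cKO. With stricter limits it was 4.43% and 14.7%, with 21 and 20 cells left in the MOF cKO libraries. Thinned to 5000 UMIs a cell, 16.47% and 20.1% of fibroblasts held a Hoxc10 UMI in E15.5 control and MOF cKO. That share was 21.6% and 13.7% in E16.5 controls 1 and 2, 12.2% in E16.5 MOF cKO, 5.10% in the E17.5 control and 24.8% in QPC cKO. Of epithelial cells, 39.1%, 32.5%, 41.2%, 16.3%, 33.4% and 12.4% held a Hoxa7 UMI in the 3 pairs of control and cKO.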

Other observations

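Non-coding neighbours of the Hox clusters were read from a list of antisense and long non-coding transcripts, several of which overlap members, so their counts are uncertain. Levels below are the lowest, the median and the highest over the libraries that list the gene, in CPM. Hotairm1, in HoxA, read 14.4, 27.7 and 74.7 in epithelial cells and 1.20, 2.34 and 4.39 in fibroblasts, with no overlap between the classes. Hoxaas3 ranged from 1.73 to 9.78 in epithelial cells and from 0.15 to 0.80 in fibroblasts. Hoxaas2, listed for 6 libraries, ranged from 2.38 to 4.68 in epithelial cells and from 0.22 to 0.54 in fibroblasts. Hoxb3os read 1.73, 19.2 and 35.8 in epithelial cells and 2.79, 3.66 and 5.69 in fibroblasts, and the classes overlapped at the low end. Hoxd3os1 lay the other way, from 0.94 to 5.27 in epithelial cells and from 5.70 to 16.7 in fibroblasts. Hotair, transcribed from HoxC, had 0 UMIs in epithelial cells and 25 in fibroblasts over all libraries. Hoxa11os, listed for 6 libraries, had 0 UMIs in epithelial cells and 78 in fibroblasts. Hottip, at the 5′ end of HoxA, had 0 UMIs in both classes. These values were not tested.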
